A study of Mus musculus with 2 samples.

Results

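Zfp genes encode zinc finger proteins named by number in the mouse. They were taken from the table of DNase I hypersensitivity as every gene symbol made of Zfp and digits, and of each gene the transcript that touches the most windows was used. This gave 340 of 22575 genes on chromosomes 1 to 19 and X, from 923 listed transcripts. The measurement, DHS-seq, sequences the short fragments that DNase I releases from open chromatin. M1, a mouse myeloid leukemia line of immature cells that differentiate toward macrophages with the cytokine IL-6, was measured untreated in 1 library and after IL-6 in 1 library. Both cultures were labeled as passages 15 to 18 and grown in RPMI medium with horse serum. According to the labels, differentiation took 4 to 5 days in IL-6. With 1 library per condition no difference had a replicate check and no test was made. A leukemia line also stands for 1 tumor and not for normal progenitors.

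Most of these proteins carry C2H2 zinc fingers, small folds held by a zinc ion that read DNA bases, often strung in long arrays through a conserved linker. Many also have a KRAB domain, which recruits the corepressor Trim28 and the histone methyltransferase Setdb1 to silence retroviruses and other repeats. The genes have multiplied by tandem duplication, so close copies sit side by side. Others of the same name are unrelated in function, such as Zfp36 (tristetraprolin), whose CCCH fingers bind and destabilize cytokine messenger RNAs.

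The table gives the mean signal over the 700-bp windows touched by the coding span, start codon to stop codon, of a transcript. In untreated cells 1 read had the value 1, and in IL-6-treated cells 1.04, so the reads behind each span could be recovered. Non-overlapping spans held 9101100 reads in untreated and 8544732 in IL-6-treated cells. Of the myeloid markers, 9 were listed. Their means in untreated cells ran from 7.86 reads per window at Ptprc to 51.5 at Prtn3, with Cd14 (50.7) and Cebpa (46.5) close to the top. Ptprc, Lyz2 (8.29), Itgam (9.29), Mpo (10.8) and Elane (15.0) lay within the range of the markers of other cells, given next. The 11 markers of T, B, erythroid, liver and nerve cells ranged from 2 to 21.7 reads per window in untreated cells, the highest at Apoa1, and none was at 0. Their summed reads went from 1263 to 1702 and those of the myeloid markers from 3880 to 2459. Of the 9 myeloid markers 7 had a lower signal after IL-6, while Mpo (151 to 183 reads) and Lyz2 (58 to 62) did not. The part of cell identity in the results below was not tested. Signal per cell and the share of cells with an open site cannot be told apart in bulk nuclei.

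The starts of 4 genes with a strong site in untreated cells are shown first, with that of Zfp57, which had little signal there and more after IL-6. Each line holds the 150 bases before the annotated transcription start site on NCBIM37, 5′ to 3′, with each CG in capitals.
Zfp446, chr7:13563047-13563196, plus strand: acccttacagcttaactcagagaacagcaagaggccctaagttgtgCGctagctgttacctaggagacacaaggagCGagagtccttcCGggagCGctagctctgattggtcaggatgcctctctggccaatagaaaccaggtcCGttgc
Zfp513, chr5:31504677-31504826, minus strand: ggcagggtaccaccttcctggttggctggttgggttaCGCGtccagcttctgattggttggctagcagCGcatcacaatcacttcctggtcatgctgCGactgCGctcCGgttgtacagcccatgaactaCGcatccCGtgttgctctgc
Zfp414, chr17:33765885-33766034, plus strand: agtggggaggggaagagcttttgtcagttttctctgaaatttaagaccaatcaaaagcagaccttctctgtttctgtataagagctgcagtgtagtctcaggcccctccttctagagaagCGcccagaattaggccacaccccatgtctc
Zfp809, chr9:22030124-22030273, plus strand: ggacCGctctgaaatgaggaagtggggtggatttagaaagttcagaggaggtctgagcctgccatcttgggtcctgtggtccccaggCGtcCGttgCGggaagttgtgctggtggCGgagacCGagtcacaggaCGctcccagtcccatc
Zfp57, chr17:37137958-37138107, plus strand: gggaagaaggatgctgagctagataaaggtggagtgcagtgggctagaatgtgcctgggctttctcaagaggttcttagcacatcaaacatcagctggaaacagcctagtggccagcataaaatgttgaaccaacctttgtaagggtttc
None of the 5 stretches overlaps an annotated exon. Those of Zfp513 and Zfp809 lie wholly inside the measured windows, that of Zfp414 for 134 bases, and those of Zfp446 and Zfp57 outside them. The CG count was 8 at Zfp513, 7 at Zfp809, 5 at Zfp446, 1 at Zfp414 and 0 at Zfp57, so a strong site occurred with many and with 1. Over 250 bases before the start, the median was 10 CG in the 340 Zfp genes and 9 in 22570 genes, and 12 and 1779 genes had no CG at all.

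Over the coding spans, the signal of Zfp genes was close to that of all genes in untreated cells and somewhat lower after IL-6. The median mean signal was 7.60 reads per window in untreated cells, beside 7.76 for all genes, and 7.01 in IL-6-treated cells, beside 8.15. The highest level in untreated cells was that of Zfp513 at 168 reads per window, ahead of Zfp830 (126), Zfp446 (103), Zfp511 (67.0) and Zfp747 (56.0). After IL-6 the order was Zfp513 (44.4), Zfp651 (38.7), Zfp446 (35.0), Zfp319 (30.5) and Zfp830 (28.0). Of these, Zfp651 and Zfp319 were the ones not lower than in untreated cells, where they had 27.8 and 27.0 reads per window.

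Other families of tandem copies, the olfactory and vomeronasal receptors of sensory neurons, had lower levels. The 1087 olfactory receptor genes had a median of 3.67 reads per window in untreated and 5.54 in IL-6-treated cells. The 319 vomeronasal receptor genes had 1.34 and 2.08. Zfp genes were thus the family with levels near those of all genes, and in the scaling of the table the one whose median did not go up after IL-6.

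**Figure D1:**
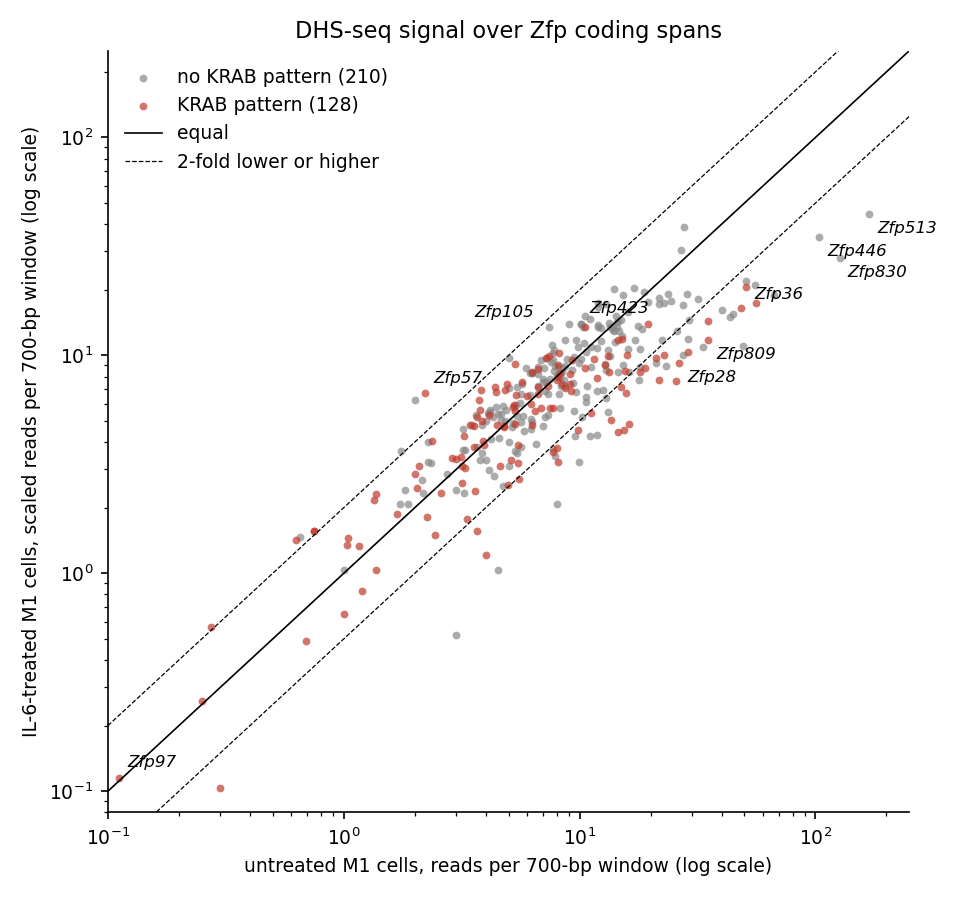
Mean DHS-seq signal of each Zfp coding span in untreated M1 cells (x axis) and IL-6-treated M1 cells (y axis), both in reads per 700-bp window on log scales. Each point is 1 gene of 1 library per condition, without the 2 genes that had no read after IL-6, and red points have the KRAB pattern. The strongest spans, Zfp513, Zfp830 and Zfp446, lie under the lower dashed line of a 2-fold lower signal and Zfp97, the lowest in untreated cells, near the line of equal signal. With the median-of-ratios scaling every point moves up by a factor of 2.52, and these 3 strong spans stay below the line of equal signal.

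To compare the libraries, 309 Zfp genes had more than 21 reads in at least 1 of them and 31 did not. Their median log2 ratio of IL-6-treated over untreated was -0.09, and that of the 18407 genes that passed the same limit was 0.03. At least 2-fold lower were 52 Zfp genes (16.8%), beside 13.5% of all genes. At least 2-fold higher were 2 (0.647%), beside 1.63%. All reads on Zfp spans went from 80019 to 67532, a ratio of 0.876 with a 95% Clopper-Pearson interval of 0.867 to 0.885. Intervals here cover counting error only and compare the 2 libraries, not the conditions. Directions rest on the scaling that the table carries. Scaling by the median of ratios over genes with at least 22 reads per window in both libraries multiplied every ratio by 2.52. It rests on 1018 genes of strong signal, and in the table's scaling ratios were lowest at high levels, as given below. The median of all genes then became 1.36, and of the Zfp genes 0 were lower by 2-fold or more and 194 were higher by as much. In that scaling 27 of the 52 fallen genes were still below 1, 10 of them with their whole interval. The other scalings tried multiplied every ratio by 0.963 to 1.02 and left 49 to 57 Zfp genes at least 2-fold lower. The Zfp median lay 0.12 below that of all genes in each scaling, since 1 factor moves both alike.

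Lower ratios went with a higher level. Of the 27 passing Zfp genes with a mean over both libraries of 20 reads per window or more, 17 were at least 2-fold lower, 63.0%, and 59.5% of all genes of that level were. The median log2 ratio was -1.30 for these Zfp genes and -1.19 for all. At 5 to 10 reads per window 15 of 124 Zfp genes were at least 2-fold lower, 12.1%, beside 2.68% of all genes. A like gap appeared in CpG-poor spans, those with under 8 CG per kb, where 13 of 70 passing Zfp genes (18.6%) and 2.84% of all genes were at least 2-fold lower. At 8 to 12 CG per kb the shares were 13.3% and 4.84%. The gap was absent in CpG-richer spans, with 12.1% beside 13.0% at 12 to 20 CG per kb and 28.1% beside 36.2% at 20 or more. Lower Zfp genes were thus found also among spans of modest mean, where the share over all genes was small. These classes share reads with the ratio itself and are given as a description.

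**Figure D2:**
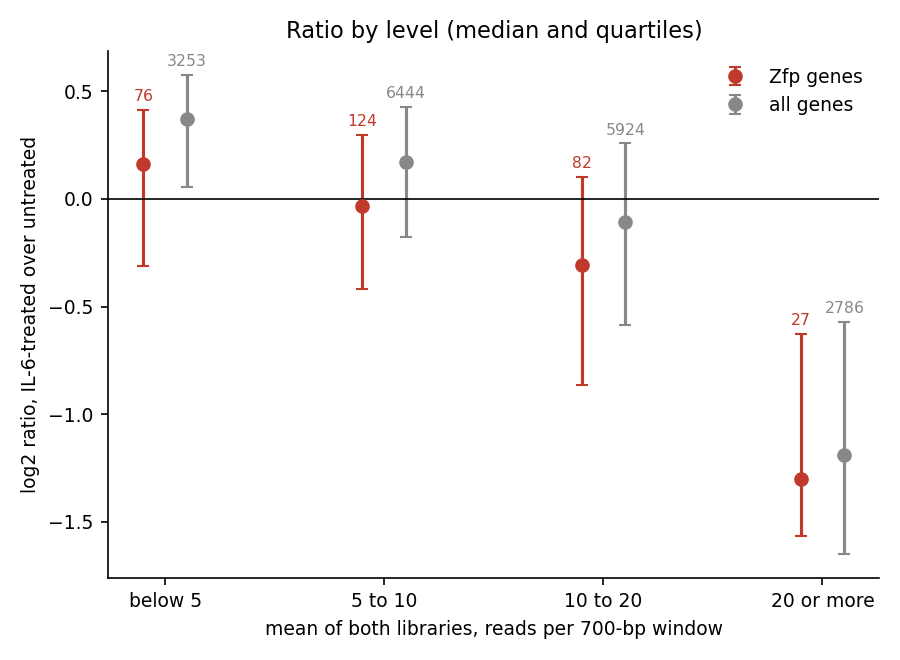
Log2 ratio of IL-6-treated over untreated signal (y axis) by the mean of both libraries in reads per 700-bp window (x axis), for Zfp genes (red) and all genes (gray). Points are medians over genes, bars run from the first to the third quartile, and the numbers count the genes that passed the limit of 21 reads. The median falls from 0.16 to -1.30 in Zfp genes and from 0.37 to -1.19 in all genes, and with the median-of-ratios scaling both series shift up together and all 8 medians lie above 0.

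The genes that were taken among those with at least 100 reads over both libraries. Zfp830, a single-finger protein of the splicing and DNA damage response, went from 253 to 54 reads in 2 windows, a ratio of 0.222 (0.162 to 0.298). Zfp503, a corepressor of development, went from 295 to 64 reads in 6 windows (0.225, 0.169 to 0.296). Zfp513 went from 841 to 214 reads in 5 windows (0.264, 0.226 to 0.307). Zfp511 went from 469 to 128 reads in 7 windows, a ratio of 0.283. Zfp738, a KRAB gene of the chromosome 13 cluster, went from 325 to 92 reads in 21 windows, a ratio of 0.294. All 5 had a transcription start site inside their windows, as did 219 of the 309 passing Zfp genes and 77.8% of all genes. All 5 stayed below 1 in each scaling tried.

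Rises were smaller. Zfp57, which with Trim28 keeps DNA methylation at imprinted genes, went from 20 to 58 reads in 9 windows on chromosome 17, a ratio of 3.01 (1.78 to 5.28). Its mean of 6.69 reads per window after IL-6 was still below the median of all genes. The other gene past 2-fold was Zfp711 on the X chromosome, with 28 and 61 reads in 43 windows (2.26, 1.42 to 3.68). Among genes with at least 100 reads in all, the largest rises were those of Zfp105 (67 to 117 reads, ratio 1.81), Zfp735 (48 to 78, 1.69), Zfp719 (48 to 76, 1.64), Zfp639 (72 to 107, 1.54) and Zfp9 (84 to 124, 1.53). Each of these 5 had an interval above 1 and a ratio under 2.

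Of 28 Zfp genes listed for a known role, 27 were members, since Zfp638 is held under its older name. Of these, 26 passed the read limit, 3 were at least 2-fold lower (11.5%, beside 13.5% of all genes) and 1, Zfp57, at least 2-fold higher. The 3 were Zfp809, Zfp91 and Zfp36. Zfp809 silences murine leukemia virus in stem cells by binding its primer binding site. It went from 909 to 294 reads in 26 windows (0.336, 0.293 to 0.383). In untreated cells its strongest window held between 473 and 653 reads, limits set by the mean and SD of the span. After IL-6 the strongest held 61.3 to 132 scaled reads. Zfp91, a regulator of NF-kB signaling, went from 489 to 181 reads in 44 windows (0.384, 0.322 to 0.457). Zfp36 went from 204 to 85 reads in 4 windows (0.433, 0.332 to 0.560), and its direction turned with the median-of-ratios scaling, where its log2 ratio was 0.13.

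Among the listed genes with a ratio above 1 were several with long spans. Zfp423, a partner of Ebf1 in adipocyte and B cell fate, went from 4313 to 5716 reads in 425 windows (1.38, 1.32 to 1.43), and its paralog Zfp521 from 1692 to 2136 in 404 windows (1.31, 1.23 to 1.40). Zfp536, a neural repressor, went from 1920 to 2437 reads in 355 windows (1.32, 1.24 to 1.40). Zfp462 had a ratio of 1.30 over 106 windows. Zfp366, known from dendritic cells as DC-SCRIPT, went from 197 to 253 reads in 27 windows (1.33, 1.10 to 1.61). The log2 ratio was below 0 in 22 of the 39 Zfp genes of more than 40 windows (56.4%) and in 38.0% of all such genes, with medians of -0.04 and 0.16. The pooled ratios were 1.07 (1.05 to 1.08) and 1.08. Several broadly used factors lay near 1. Zfp143, which binds many promoters, had 269 reads in both libraries (1.04, 0.873 to 1.23), and Zfp148 had 441 and 439 (1.03, 0.903 to 1.18). Zfp335, a regulator needed in neural progenitors and T cells, had 517 and 357 reads (0.717, 0.625 to 0.822). Zfp410, an activator of the chromatin remodeler gene Chd4, had 403 and 257 (0.662, 0.564 to 0.776). Zfp467 had 137 and 193 (1.46, 1.17 to 1.83). These 3 had intervals on 1 side of 1 and changes under 2-fold, and with the median of ratios all 3 were above 1. Zfp42, the stem cell marker Rex1, had 10 and 6 reads in 2 windows and was under the limit.

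Partners of the KRAB proteins were followed at 15 genes. Trim28 was the 1 gene of this list at least 2-fold lower, from 397 to 149 reads in 10 windows (0.390, 0.321 to 0.472), and 0 were at least 2-fold higher. That is 6.67% of the list, beside 13.5% of all genes. The median of ratios, which multiplies every ratio by 2.52, brings that of Trim28 close to 1. Of the DNA methyltransferases, Dnmt1 (1987 to 1283 reads) and Dnmt3a (2697 to 1625) had lower and Dnmt3b (253 to 303, ratio 1.24, 1.05 to 1.48) had higher signal, and with the median of ratios all 3 were above 1. Atf7ip, a partner of Setdb1, had 366 and 423 reads (1.20, 1.04 to 1.38), D14Abb1e had 163 and 219 (1.39, 1.13 to 1.72), and Setdb1 itself had 450 and 381. The median log2 ratio of the list was -0.19, beside 0.03 for all genes. An annotated start site lay inside the windows of 7 of the 15 genes (46.7%), beside 77.8% of all genes. Trim28 and the 3 methyltransferases had such a site, and Atf7ip, D14Abb1e and Setdb1 did not. The part of this in the ratios was not tested.

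The falls could be placed more closely within a gene where a second transcript began its coding span further 3′, since the difference between the 2 rows gives the reads of the 5′ windows alone. Of 340 genes, 86 could be split in this way. In 22 of them the 5′ stretch had at most 6 windows and held an annotated start site. These stretches held 2800 reads in untreated cells, 37.3 per window, and 982 in IL-6-treated cells, a scaled 13.6 per window. Their ratio was 0.364 (0.338 to 0.392). The remaining windows of the same genes had 6.10 and 5.77 reads per window, a ratio of 0.946 (0.881 to 1.02). The 15 short stretches without a start site had a ratio of 1.11 (0.951 to 1.29). In all genes the 1077 short stretches with a start site had a ratio of 0.336 and the remainder 0.978. Their median log2 ratio was -1.55, beside -0.94 in the Zfp genes. The stretches of all genes were shorter, with a median of 2 windows beside 4 in the Zfp genes, and the part of length was not tested. Short stretches without a start site had a ratio of 0.695 (0.674 to 0.717) in all genes, below that of the Zfp genes. With the median-of-ratios scaling the ratios of the 22 Zfp genes were 0.916 at the start sites and 2.38 in the remainder, while the quotient of both is the same in any scaling. The limit of 6 windows was set after the data were seen. Over all 59 stretches with a start site the ratio was 0.715 and that of the remainder 1.13, beside 0.926 and 1.10 in all genes. Of the 54 with more than 21 reads there, 34 had a lower ratio than the remainder (63.0%, beside 72.8% in all genes). In others the remainder had the lower ratio. Examples were Zfp386 (481 to 204 reads, 5′ windows 50 to 32), Zfp316 (83 to 26, 5′ 164 to 166) and Zfp708 (161 to 72, 5′ 94 to 109).

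The 5′ stretch was a single window with a start site in 5 genes, and a single window without one in Zfp219 (18 and 11 reads) and Zfp467 (6 and 2). The window of Zfp446, chr7:13563201-13563900, held 580 of 723 reads in untreated cells and 123 of 236 after IL-6, a ratio of 0.220 (0.180 to 0.268). The other 6 windows held 143 and 113 reads, with an interval that includes 1 (0.635 to 1.06). At Zfp513 the window chr5:31504201-31504900, which holds the sequence printed above, went from 672 to 150 reads (0.232, 0.193 to 0.277), and the other 4 windows from 169 to 64 (0.393, 0.290 to 0.527). At Zfp414 the window chr17:33765901-33766600 went from 145 to 27 reads (0.193, 0.123 to 0.293), and the other 3 held 28 and 31. At Zfp688 the single window went from 213 to 58 reads and the other 4 held 41 in both libraries. At Zfp935 it went from 81 to 26 and the other 18 windows from 66 to 40. The start window was lower in each of the 5 genes and remained below 1 with the median of ratios, from 0.487 at Zfp414 to 0.839 at Zfp935. The remainder had an interval below 1 at Zfp513 and Zfp935, and at the other 3 its interval held 1.

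Not every start site had lower signal after IL-6. Short 5′ stretches with more than 21 reads in untreated or treated cells numbered 18. Of these, 8 were lower by 2-fold or more (44.4%, beside 67.2% of such stretches in all genes) and 0 higher by as much. Before the read limit, the stretches of all genes were the shorter ones, as given above. Zfp111, Zfp626, Zfp59, Zfp846 and Zfp94 had between 17 and 43 reads there in untreated cells, and intervals that held 1. The 8 stretches lower by 2-fold or more had between 81 and 672.

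**Figure D3:**
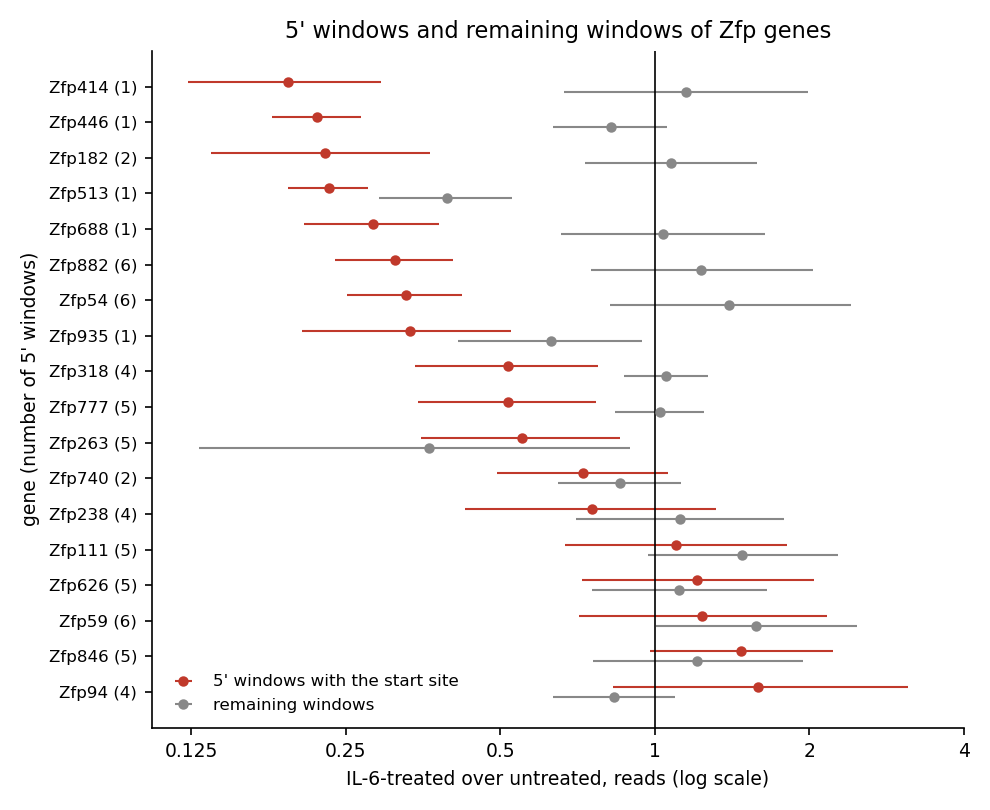
Ratio of IL-6-treated over untreated reads (x axis, log scale) in the 5′ windows that hold the start site (red) and in the remaining windows (gray) of the same gene, for the 18 Zfp genes with a 5′ stretch of at most 6 windows and more than 21 reads there in either library. Bars are 95% Clopper-Pearson intervals, the number of 5′ windows stands in parentheses, and the vertical line marks 1. The upper 8 genes have 5′ ratios of 0.193 to 0.333, and for all 18 genes the median-of-ratios scaling would move every point by a factor of 2.52 to the right.

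The whole set showed the same split. Of the 340 spans, 234 had an annotated start site inside their windows. Of the 219 of these that passed the limit, 49 were at least 2-fold lower (22.4%), beside 15.6% of all such genes. Of the 90 passing genes whose start site lay outside, 3 were (3.33%), beside 5.96% of all such genes. Signal also became more even along the spans. In the 299 genes with at least 5 windows, the median coefficient of variation between windows went from 0.927 to 0.733. It was lower in 243, 81.3% beside 83.5% of all such genes, where a span without reads in a library counts as not lower. In all genes the median went from 1.02 to 0.729. A window certain to hold more than 21 reads, the level the study used for a hypersensitive site, was present in 111 Zfp genes in untreated cells, 32.6% beside 35% of all genes, and in 49 after IL-6, 14.4% beside 18.1%. For more than 50 reads these numbers were 67 (19.7%, beside 19.3% of all genes) and 6 (1.76%, beside 2.33%). The counts after IL-6 rest on the table's scaling and were not made in the others, of which the median of ratios would raise them. They hold only spans certain to have such a window, so others can be missed.

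Zfp genes were spread unevenly over the chromosomes. Chromosome 7 held 86 of the 340, which was 4.16% of its 2065 genes. It was followed by chromosome 17 with 39, chromosome 13 with 31, chromosome 8 with 26 and chromosome 9 with 20, and chromosome 19 held 2. The lowest median log2 ratio of the chromosomes with at least 20 members was that of chromosome 13, -0.44 over 27 genes, with 10 of them lower by 2-fold or more. All genes of that chromosome had a median of 0.02, and 19% of them were at least 2-fold lower. On chromosome 7 the Zfp median was -0.01 over 82 genes, 16 of them at least 2-fold lower, beside 15.1% of all genes there.

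Joining neighbors at most 200 kb apart gave 24 clusters of at least 3 genes, with 151 genes in all. Another 139 genes had no neighbor within that distance and 50 stood in pairs. Clustered genes went from 24514 to 15436 reads (0.654, 0.641 to 0.667) and the others from 55505 to 52096 (0.974, 0.963 to 0.986). These sets differed in length, with 2373 windows in the 151 clustered genes and 6818 in the 189 others. Over all genes the pooled ratio was 0.648 for spans of 8 to 15 windows, 0.776 for 16 to 40 and 1.08 for longer ones. In Zfp genes of these lengths it was 0.862, 0.709 and 1.07. The part of length in the contrast was not tested. At least 2-fold lower were 31 of 141 passing clustered genes (22%) and 21 of 168 others (12.5%), beside 13.5% of all genes. Of the 24 pooled ratios, 16 had an interval below 1, 4 above 1 and 4 that held 1, while in the median-of-ratios scaling 23 were above 1. The ratios ranged from 0.407 to 1.30, a spread that no common factor changes.

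**Figure D4:**
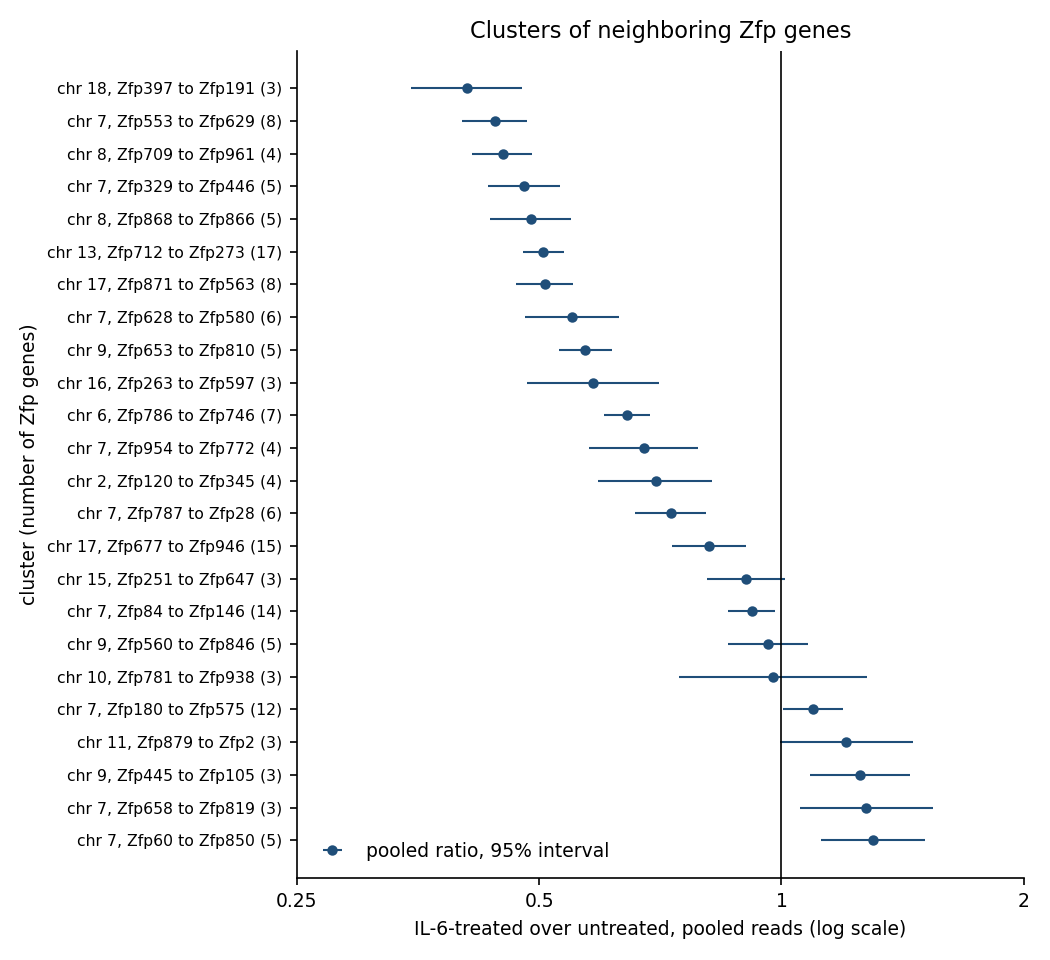
Ratio of IL-6-treated over untreated reads (x axis, log scale), pooled over the Zfp genes of each of the 24 clusters (y axis, named by chromosome and first and last gene, with the number of Zfp genes in parentheses). Bars are 95% Clopper-Pearson intervals of counting error and the vertical line marks equal signal. The clusters run from 0.407 on chromosome 18 to 1.30 on chromosome 7, and in the median-of-ratios scaling 23 of the 24 intervals lie above 1.

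The largest cluster was on chromosome 13, from Zfp712 to Zfp273, with 17 genes over 786 kb. It went from 3500 to 1706 reads (0.506, 0.477 to 0.536). Its genes did not move alike. At least 2-fold lower were 7, among them Zfp712 (435 to 129 reads), Zfp738 and Zfp493 (232 to 98), the member with the highest mean. Zfp493 went the other way with the median of ratios, where its log2 ratio was 0.15. Zfp58, the member with the lowest mean, had 16 and 27 reads. The 9 genes of other names that overlap this range and passed the limit had a median log2 ratio of -1.28. Any windows they share with Zfp genes were not taken out. In other low clusters such medians varied. They were -0.66 from Zfp553 to Zfp629 (12 genes), 0.03 from Zfp329 to Zfp446 (3), 0.33 from Zfp653 to Zfp810 (4) and 0.17 from Zfp871 to Zfp563 (3).

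On chromosome 17 the cluster from Zfp677 to Zfp946 held 15 genes over 1064 kb, all with the KRAB pattern. Its ratio of 0.813 came from Zfp54, which went from 283 to 116 reads. Without it the ratio was 1.02. Most of Zfp54's reads lay in its 6 5′ windows, 257 in untreated and 81 in IL-6-treated cells, while its other 12 windows had 26 and 35. With the median of ratios the whole span of Zfp54 had a log2 ratio of 0.10. In the same way 1 gene decided the ratio of the cluster from Zfp787 to Zfp28 on chromosome 7. Zfp28 went from 477 to 160 reads, and without it the ratio of 0.728 became 1.12. On chromosome 2, the cluster from Zfp120 to Zfp345 had a ratio of 0.698 and of 1.05 without Zfp120 (225 to 101 reads).

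In other clusters most or all genes were lower. On chromosome 6 all 7 genes from Zfp786 to Zfp746 were lower, with log2 ratios between -0.99 at Zfp956 and -0.18 at Zfp777, and a pooled ratio of 0.643 (0.603 to 0.687). This cluster holds Zfp746, known as PARIS, a repressor of PGC-1 alpha, which went from 390 to 218 reads. On chromosome 8 all 4 genes from Zfp709 to Zfp961 were lower and 3 of them at least 2-fold, Zfp617 (795 to 339 reads), Zfp882 (288 to 115) and Zfp961 (651 to 291). Zfp617 and Zfp882 share at least 1 window, and the reads there count for both. The same holds for Zfp595 and Zfp953 in the chromosome 13 cluster and for Zfp420 and Zfp27 on chromosome 7. Sums over clusters and over all Zfp spans hold the shared reads of these 3 pairs more than once. On chromosome 7 the 8 genes from Zfp553 to Zfp629 had a ratio of 0.440 (0.402 to 0.483), with Zfp747 lowest at 224 to 67 reads, and Zfp629 higher at 48 and 67. The chromosome 18 cluster of Zfp397, Zfp35 and Zfp191 had the lowest ratio, and Zfp35 held 85.9% of its reads in untreated cells.

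Not all clusters of chromosome 7 had lower signal. The 12 genes from Zfp180 to Zfp575 had a ratio of 1.09 (1.00 to 1.19), and 2 of the 12 were below 1, Zfp180 and Zfp94. The 5 genes from Zfp60 to Zfp850 had 326 and 408 reads, a ratio of 1.30 (1.12 to 1.51), and 0 of the 4 that passed the limit were below 1. The 14 genes from Zfp84 to Zfp146 had a ratio of 0.919 (0.859 to 0.983), and of 1.02 without Zfp420, where the reads shared with Zfp27 stayed in. Zfp146 itself had 36 and 17 reads, and its log2 ratio of -1.01 became 0.33 with the median of ratios. In the cluster from Zfp628 to Zfp580 Zfp784 went from 201 to 78 reads, and it too turned, to a log2 ratio of 0.03. These clusters differed in their level in untreated cells as well. The cluster of Zfp60 had at most 4.88 reads per window in a gene, and in that of Zfp553 Zfp747 reached 56.0.

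The KRAB domain was searched in the translated coding sequences by a strict pattern, which misses divergent domains. It was found in 129 of 340 genes. These had a median of 5.47 reads per window in untreated cells, beside 8.47 in the 211 others. At least 2-fold lower were 27 of 117 (23.1%), beside 25 of 192 (13.0%) and 13.5% of all genes. Within clusters the shares were 23.7% and 20%, and outside them 22% and 9.45%. The median log2 ratios were -0.15 with the pattern and -0.07 without it. An annotated start site lay inside the windows of 76.0% of the genes with the pattern and 64.5% of the others, and its part was not tested. The number of C2H2 fingers had a median of 10 and a maximum of 36 in Zfp142, and 15 genes had none of the searched form, Zfp36 and Zfp503 among them. Across the 340 genes Spearman's rho of finger number with the mean was -0.18 in untreated and -0.21 in IL-6-treated cells. Spearman's rho of CG per kb with the mean was 0.66 and 0.74. All points of these correlations come from the same 2 libraries.

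Close copies limited what could be read. Zfp97 and Zfp960, KRAB genes on chromosome 17 with the same number of fingers, are shown for how alike they are. The lines give the first finger of each on NCBIM37, 5′ to 3′, with the codons of the linker in capitals.
Zfp97, chr17:17281682-17281759, plus strand: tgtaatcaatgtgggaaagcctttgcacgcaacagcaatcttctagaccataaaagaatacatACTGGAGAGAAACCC
Zfp960, chr17:17224467-17224544, plus strand: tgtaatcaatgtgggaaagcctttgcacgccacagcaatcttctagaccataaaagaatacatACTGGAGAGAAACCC
Counted from the first base of the finger, they differ by A31C, with the base of Zfp97 first. Of the 32-base words in the span of Zfp97, 3.06% occurred once in the genome, and of those in Zfp960 7.51%. Over 36 windows each, Zfp97 had 4 reads in both libraries and Zfp960 had 25 and 17. The lowest share was 2.83% at Zfp781, with 3 reads and 1 read in 10 windows. The 2 members without a read after IL-6 were of this kind. Zfp640 had 1 read in untreated cells and 8.16% unique words, and Zfp934 had 3 reads and 26%. No fold is given, since 0 reads allow up to 3.

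The 17 spans with under 50% unique words had a median of 1.03 reads per window in untreated cells, the 99 with 50 to 90% had 5.32, and the 224 others 8.70. In the last group 30 of 211 genes were at least 2-fold lower (14.2%), beside 13.5% of all genes. Low signal there cannot be told apart from reads that could not be placed. Zfp747 had 56.0 reads per window in untreated cells at 49.8% unique words. Its strongest window held 183 to 202 of the 224 reads in 4 windows, and the unique share of single windows was not measured.

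**Figure D5:**
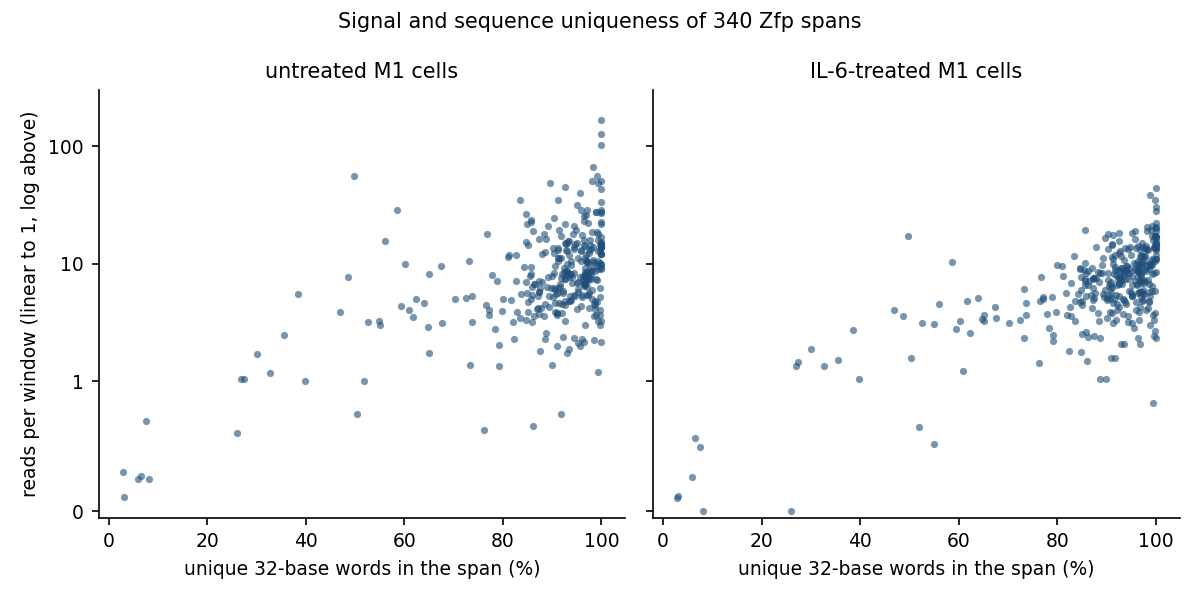
Mean signal in reads per 700-bp window (y axis, linear up to 1 and logarithmic above) against the share of 32-base words of the span that occur once in the genome (x axis, percent), for 340 Zfp genes in untreated (left) and IL-6-treated (right) M1 cells. Each point is 1 gene. The spans with the fewest unique words, such as Zfp781 at 2.83%, have under 1 read per window in both libraries.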

How the data were processed

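DHS-seq was compared between 1 library of untreated and 1 of IL-6-treated M1 cells. Trimming, alignment by BWA to NCBIM37 and summary in Seqmonk were done by the authors. They deposited the signal of 55432 transcripts, as its mean and SD over the 700-bp windows of the coding span. The deposited table also lists the count of windows and of coding segments. The methods describe single reads and a legend paired ends.

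The members and lists were chosen with earlier results of these data known. Reads were recovered as mean times windows, divided by 1.04 after IL-6, and all were within 0.05 of a whole number. The spans equaled GENCODE M1 coding spans for all 340 genes. Ratios keep the table's scaling, the log2 ratio adds 0.5 reads, and a gene was compared where 1 library or both had more than 21 reads. Ratio intervals are 95% Clopper-Pearson intervals. With 1 library per condition no test was made. Named are genes with known roles, the 5 highest per library, the 5 largest rises and falls with at least 100 reads in all, genes without reads, and the extremes of clusters with at least 5 genes. Genes outside that rule, such as Zfp711, Zfp414, Zfp688, Zfp935 and Zfp97, were chosen after their values were seen. A window's lowest and highest possible maximum follow from mean, SD and number. Sequences, start sites and finger patterns are those of NCBIM37 and GENCODE M1. Scripts ran on simulated reads first. Alternatives covered scaling, reads added, filter, fold, transcript and cluster limits. Python 3.11.15, numpy 2.4.6, pandas 2.3.3, scipy 1.17.1, numba 0.67.0, biopython 1.88 and matplotlib 3.10.9 were used.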

Additional observations from a re-analysis of the deposited data

How the results depend on the processing

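No paired analysis was possible because there is 1 library per condition and no result comes from a test. The scaling moved the results most. With the median of ratios the median log2 ratio of the Zfp genes was 1.24, the pooled ratio 2.21, and 0 genes were at least 2-fold lower and 194 higher. In that scaling 0 clusters had an interval below 1 and 23 above 1, the clustered genes had a ratio of 1.65, and the log2 ratios of Zfp146 (0.33), Zfp36 (0.13), Zfp493 (0.15), Zfp54 (0.10) and Zfp784 (0.026) changed sign. The pooled ratio was 0.844 without scaling, 0.898 with the total over non-overlapping spans, 0.888 with the trimmed mean of log ratios and 0.848 without Zfp423, and that of the clustered genes 0.630 and 0.670 in the first 2 of these. Without a filter 5 genes were at least 2-fold higher, with the shortest transcript 0, and at a fold of 1.5 there were 82 lower and 14 higher. With more than 50 reads the median levels were 8.70 and 7.98 reads per window. In spans with at least 90% unique words, an alternative added after seeing the data, they were 8.70 and 8.41, the pooled ratio was 0.933, and 30 genes were at least 2-fold lower and 1 higher. A gap of 500 kb left 1 cluster with an interval above 1 and a pooled ratio of 0.676, and clusters of at least 5 genes numbered 14, with 2 intervals above 1. Filtered alternatives hold fewer genes, and for the other shifts the cause was not tested. The other 50 values moved less than their interval or 1.5 times. Window means hide the position of sites, and reads beyond the windows touched by coding spans were not seen.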
